A study of Mus musculus with 6 samples.

Results

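The integrins and focal adhesion genes are 36 mouse genes, 24 integrin subunits and 12 genes of the cytoplasmic adhesion plaque, chosen by name. The platelet subunit Itga2b was left out of this choice. They were read through every probe set annotated to them, 81 in all out of 45037 on the array, and 26 of the 36 had a probe set bright enough to test, out of 13608 genes tested. RNA came from mouse embryoid bodies, clumps of differentiating embryonic stem cells kept in suspension, 10 days after they were made from cells of the D3 line in medium without LIF. Gelatin-coated microspheres were mixed into the bodies of all 6 samples. In the 3 control samples the microspheres held the dye CellTracker Red, and in the 3 others they held retinoic acid (RA), the form of vitamin A that binds nuclear receptors. The design text gives various ratios of microspheres to cells and a range of rotary speeds, without saying which sample had which. The labels describe triplicates and do not say that these were separate cultures, so the p-values measure only how far these samples spread, and that spread may be technical.

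Integrins are receptors of an alpha and a beta chain that span the cell membrane and bind the extracellular matrix or proteins of other cells. Inside the cell, talins and kindlins bind the beta tail and switch the receptor on, and a plaque of kinases and adaptors ties it to actin filaments. In the early embryo the laminin receptors are known from the epiblast and other epithelia, and the receptors for fibronectin and related ligands from mesoderm and mesenchyme.

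Levels below are log2(intensity + 16) after quantile normalization, for the brightest kept probe set of each gene, and a difference is the RA mean less the control mean on that scale, given with the limma fit's standard error (SE). A gene was called higher or lower at a limma adjusted p under 0.05 (Benjamini-Hochberg, over all 13608 genes, two-sided). Median deposited signals ran from 41.4 on control array 3 to 65.5 on RA array 3, and the ratio of 3-prime to 5-prime Gapdh signal, which rises as RNA degrades, was 34.0 on RA array 1 against 3.06 to 4.74 elsewhere. Markers of pluripotent and epiblast cells, from which embryoid bodies derive, were above the filter level of 5.74 in 11 of 11 genes in each group. Each array measured whole bodies, so fewer cells of a type and less RNA per cell cannot be told apart.

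Among the plaque genes, levels were lower with RA or not called, and the integrin subunits went both ways. The integrin-linked kinase partner Parva, the integrin subunit Itga8 and the talin gene Tln1 had the 3 largest falls, at 2.21, 1.93 and 1.92 times lower, and Fermt3, Itgav, Ilk and Pxn also fell. The subunits Itgb8 and Itga6 rose, at 2.02 and 1.41 times higher. Of 26 tested members 2 rose and 7 fell, which is 34.6% called against 30% of all genes tested, with 26.9% lower against 15.6% and 7.69% higher against 14.3%. The member median was -0.30, against 0.01 over all genes. It turned positive when each gene was read from its most variable probe set, as the last section gives. Without any scaling between arrays the median of all genes moved to 0.26, and of the 7 falls only that of Parva still passed, while both rises did. Over all genes, the lower calls then went from 2127 to 651 and the higher calls from 1949 to 1750. When RA array 1 and control array 3 were both left out, 1 member rose and 7 fell, with medians of -0.21 over members and 0.015 over all genes.

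**Figure D1:**
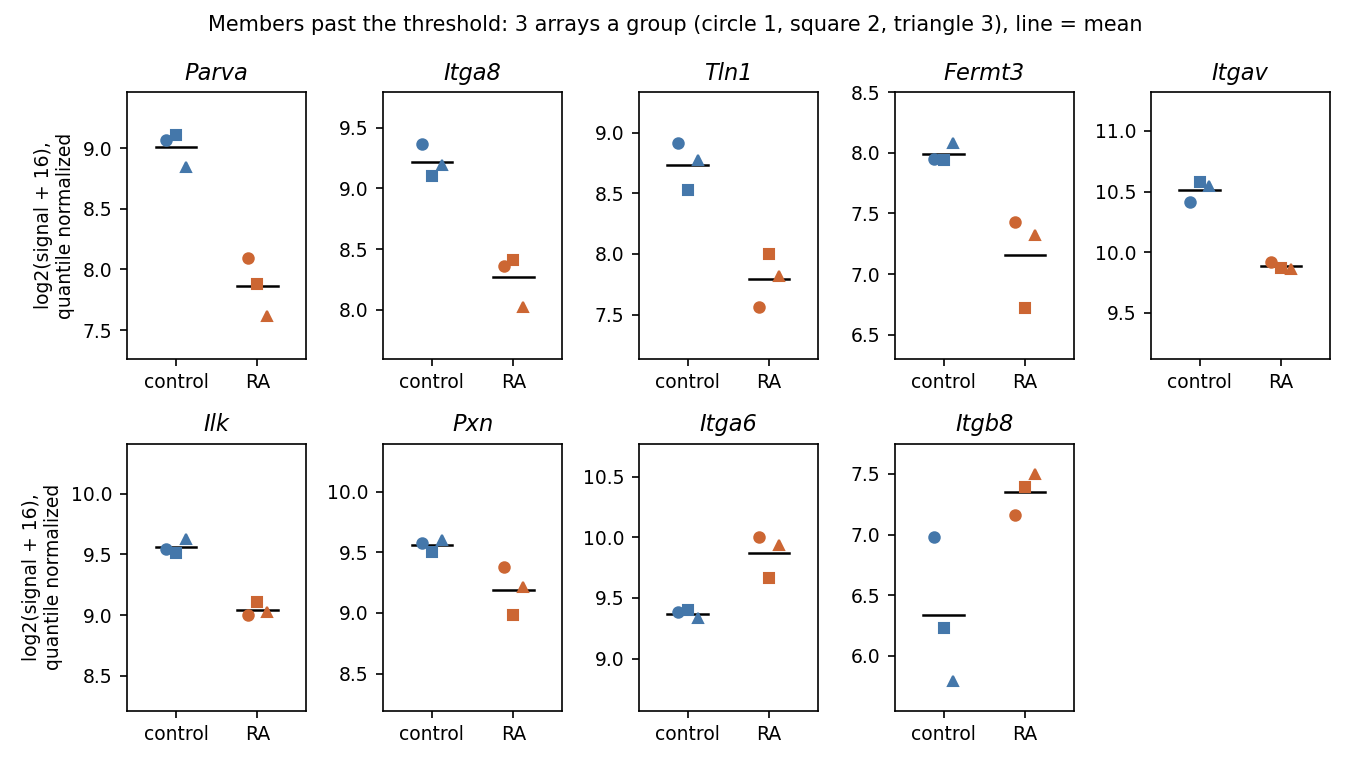
Levels of the 9 called members, as log2(signal + 16) after quantile normalization, on each of 3 control and 3 RA arrays; symbols give the array number and lines the group means. All panels span the same log2 range, and in each the arrays of the groups are apart, by the least for Pxn and Itgb8, whose control array 1 at 6.98 lay close to RA array 1 at 7.16.

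**Figure D2:**
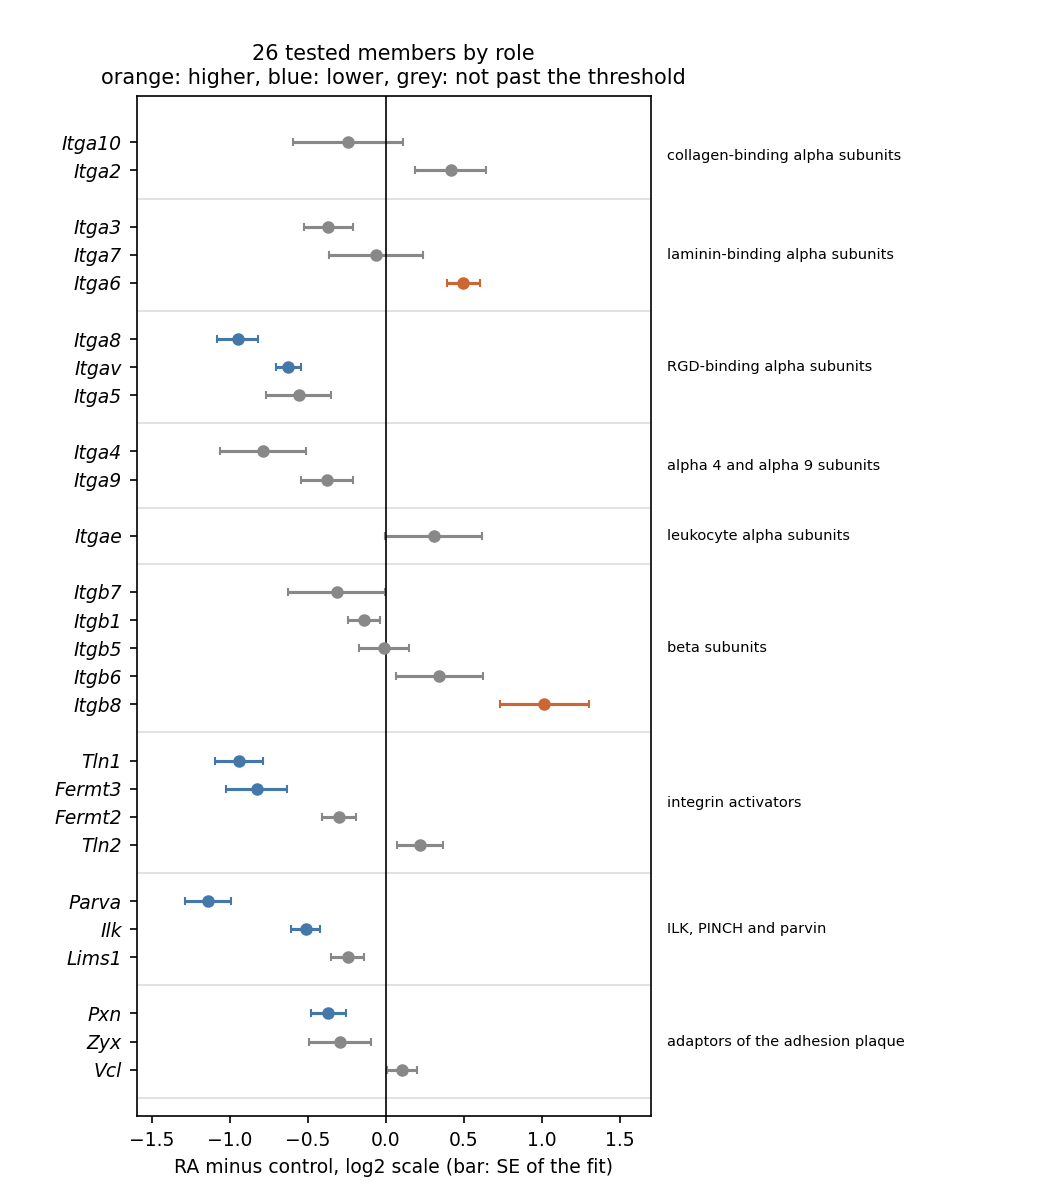
Differences (RA minus control, log2) with SE bars for the 26 tested members by role. The plaque genes and the alpha subunits that bind RGD ligands sit mostly left of 0, and Itga6 and Itgb8 sit right of it.

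Promoter sequence from RefSeq (GRCm38.p6) was on hand for 25 of the 36 members and for 6 of the 9 called ones. The 250 bases before the start are shown for 3 of them, the falling Itga8 and Tln1 and the rising Itgb8, because each has a single listed start and moved by nearly the same size. They run 5′ to 3′ on the gene's strand, and capitals mark matches to CANNTG, the E-box, on either strand.
Itga8 (chr2:12301945-12302194, minus strand): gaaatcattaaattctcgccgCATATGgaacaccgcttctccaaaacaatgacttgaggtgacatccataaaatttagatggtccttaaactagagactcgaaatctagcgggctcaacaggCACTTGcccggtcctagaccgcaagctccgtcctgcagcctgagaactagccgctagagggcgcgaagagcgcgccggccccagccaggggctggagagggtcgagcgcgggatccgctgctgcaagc
Tln1 (chr4:43562584-43562833, minus strand): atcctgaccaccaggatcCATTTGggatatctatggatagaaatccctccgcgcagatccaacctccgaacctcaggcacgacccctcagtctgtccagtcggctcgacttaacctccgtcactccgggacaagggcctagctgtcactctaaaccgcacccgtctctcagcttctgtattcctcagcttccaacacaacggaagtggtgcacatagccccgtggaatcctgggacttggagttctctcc
Itgb8 (chr12:119238277-119238526, minus strand): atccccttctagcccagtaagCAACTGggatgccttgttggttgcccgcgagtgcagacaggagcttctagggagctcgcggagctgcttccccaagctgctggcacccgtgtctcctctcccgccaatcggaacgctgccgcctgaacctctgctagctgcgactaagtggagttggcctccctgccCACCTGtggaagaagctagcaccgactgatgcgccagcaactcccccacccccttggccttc
The same window was searched on both strands for AGGTCA, a half-site of retinoid receptors, for GGGCGG, a GC box, and for the CArG box of serum response factor. None of these motifs was found in the 3 windows shown. AGGTCA was found for 1 of the 25 members, Zyx, and for 15.76% of 27025 genes. GGGCGG was found for 12 of the 25 and 35.36% of genes, and CANNTG for 17 and 69.3%. The CArG box was found for 3 members, Fermt2, Itgb6 and Vcl, and for 1.62% of genes. No member of these 3 was called. CANNTG can overlap with the other motifs, and a match is only a match of letters.

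The 3 alpha subunits that bind ligands through the RGD motif, such as fibronectin and vitronectin, were lower with RA on average, and 2 of 3 passed the test. Itga8, which pairs with Itgb1 and is known from mesenchyme and smooth muscle, lay at 9.36, 9.10 and 9.19 on the control arrays and at 8.36, 8.41 and 8.03 on the RA arrays. Every RA array was below every control array, by at least 0.69 between the nearest pair on the log2 scale. The difference was -0.95 ± 0.13 (SE, n = 3, limma adjusted p = 0.000240). Its dimmer probe set, below the filter level on average, lay at 5.80 to 6.56 on control and 4.49 to 5.0 on RA arrays. Itgav, the common partner of several beta chains, lay at 10.41, 10.58 and 10.55 on control arrays and at 9.92, 9.87 and 9.86 on RA arrays. The groups were apart and the RA arrays were nearly equal. The difference was -0.63 ± 0.08 (SE, n = 3, limma adjusted p = 0.000148), or 1.54 times lower. Its other kept probe sets, both dimmer, gave -0.75 and 0.51 and were not called, and the mean of the 3 was not called either (-0.29). Itga5, of the classical fibronectin receptor, lay at 7.38, 7.53 and 7.13 against 6.53, 7.07 and 6.76. The arrays did not overlap here either, but the difference of -0.56 ± 0.21 missed the threshold (SE, n = 3, limma adjusted p = 0.0631), and it passed when arrays were scaled to a common trimmed mean. Its other kept probe set gave -0.04 with overlapping arrays, and the mean of both gave -0.30, not called. Without scaling, the differences of Itga8 and Itgav were -0.69 and -0.25 and neither passed.

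Among the laminin receptors only Itga6 was called. Itga6, a subunit of stem cells and epithelia, lay at 9.38, 9.40 and 9.34 on control arrays and at 10.01, 9.66 and 9.93 on RA arrays. All RA arrays were above all control arrays. The difference was 0.50 ± 0.10 (SE, n = 3, limma adjusted p = 0.00369), and its other kept probe set gave 0.49 and was also called. The call held without any single array, with differences of 0.43 to 0.60, and under the other scalings, at 0.54 with a common trimmed mean and 0.84 without scaling. Itga3, known from epithelia, lay at 8.80, 8.32 and 8.98 on control arrays and at 8.31, 8.35 and 8.33 on RA arrays. Control array 2 overlapped the RA arrays, and the difference of -0.37 ± 0.16 was not called (SE, n = 3, limma adjusted p = 0.104). A dimmer Itga3 probe set lay at 6.77 to 7.17 on control and 7.46 to 7.93 on RA arrays and passed as higher in the fit over probe sets (0.74 ± 0.19, SE, n = 3, limma adjusted p = 0.0164), so the probe sets of Itga3 gave no single direction. Itga7, a muscle subunit, had a difference of -0.06 with a 95% interval from -0.73 to 0.60, which leaves room for changes either way.

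The subunits of cell-cell and collagen binding gave no call. Itga4, which binds Vcam1 and fibronectin, lay at 7.22, 6.80 and 6.68 on control arrays and at 6.30, 6.40 and 5.63 on RA arrays. Its difference of -0.79 ± 0.28 lay just past the threshold on the uncalled side (SE, n = 3, limma adjusted p = 0.0510). A second Itga4 probe set moved the other way, from 5.52 to 6.04 on control arrays to 6.60 to 6.97 on RA arrays, and was called higher in the fit over probe sets (1.09 ± 0.26, SE, n = 3, limma adjusted p = 0.0125). The difference of Itga4 therefore rests on which probe set is read. Itga9, a receptor for tenascin, had arrays that did not overlap but was not called (-0.38 ± 0.17, SE, n = 3, limma adjusted p = 0.115). The collagen receptor subunits Itga2 and Itga10 gave 0.41 ± 0.23 and -0.24 ± 0.35, and Itgae, the chain that binds E-cadherin on lymphocytes, gave 0.31 ± 0.31 (SE, n = 3). The RA mean of Itga10, 5.68, lay below the filter level.

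Of 5 tested beta subunits 1 rose and 0 fell. Itgb8, which pairs with Itgav and is known for the activation of latent TGF-beta, lay at 6.98, 6.23 and 5.80 on control arrays and at 7.16, 7.39 and 7.50 on RA arrays. The RA arrays were all higher, but control arrays spread over more than 1 log2 unit. The difference was 1.02 ± 0.28 (SE, n = 3, limma adjusted p = 0.0187), a size passed by 7.97% of all genes. The call was lost when any of control arrays 2 and 3 and RA arrays 2 and 3 was left out, at differences of 0.75 to 0.997, and when RA array 1 and control array 3 both were (0.84). Itgb1, the partner of most alpha chains, lay at 9.10, 9.23 and 9.20 against 9.14, 8.91 and 9.06, and the groups overlapped. Its difference was -0.14 with a 95% interval from -0.36 to 0.08, and a second probe set of nearly equal brightness gave -0.36 with an interval from -0.64 to -0.09 and RA arrays wholly below the controls, but was not called (limma adjusted p = 0.0592 over probe sets). The third kept Itgb1 probe set, which was dimmer, gave 0.38 and was not called. Itgb5, which pairs with Itgav, gave -0.01 with an interval from -0.37 to 0.34, and its 4 kept probe sets ranged from -0.01 to 0.10. Itgb6 and Itgb7 gave 0.34 ± 0.28 and -0.32 ± 0.31 (SE, n = 3), and the control mean of Itgb6, 5.73, lay below the filter level. Itgb7 was low on RA array 1 alone, at 5.50 against 6.59 and 6.47.

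The integrin activators were led by 2 falls. Tln1, the ubiquitous talin that links beta tails to actin, lay at 8.91, 8.52 and 8.77 on control arrays and at 7.56, 8.0 and 7.82 on RA arrays. The groups were apart and the difference was -0.94 ± 0.15 (SE, n = 3, limma adjusted p = 0.000726). Its 2 dimmer kept probe sets gave 0.02 and 0.23 and were not called, so the fall was read by the brightest probe set alone, and the mean of its kept probe sets was not called (-0.23). Without scaling the brightest gave -0.70 and did not pass. Tln2, the second talin, gave 0.22 ± 0.15 and was not called (SE, n = 3, limma adjusted p = 0.311). Fermt3, the kindlin of blood cells, lay at 7.95, 7.94 and 8.08 on control arrays and at 7.43, 6.72 and 7.33 on RA arrays. RA array 2 was the lowest and the groups did not overlap. The difference was -0.83 ± 0.20 (SE, n = 3, limma adjusted p = 0.00761), and a second Fermt3 probe set was called lower as well, at -0.998, while another gave 0.10. Fermt2, the kindlin of most solid tissues, gave a smaller difference of -0.30 ± 0.11 that missed the threshold (SE, n = 3, limma adjusted p = 0.0570) and turned to 0.06 without scaling.

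Ilk, Parva and Lims1 encode the pseudokinase, the parvin and the PINCH protein that form a complex at the beta tail, and 2 of the 3 fell. Parva lay at 9.07, 9.11 and 8.85 on control arrays and at 8.10, 7.88 and 7.62 on RA arrays. The groups were separated by 0.75 between the nearest arrays. The difference of -1.14 ± 0.15 (SE, n = 3, limma adjusted p = 0.000127) was the largest among the 26 tested members and the only fall past 2-fold, and 4.93% of all genes were called at least 2-fold lower. Only Itgb8 was called at least 2-fold higher, as were 3.04% of all genes. The fall of Parva held without scaling (-0.90). The dimmer Parva probe set gave -1.11 and was not called. Ilk lay at 9.54, 9.51 and 9.62 against 9.0, 9.10 and 9.03, so both groups were tight and apart. Its difference was -0.52 ± 0.09 (SE, n = 3, limma adjusted p = 0.00138), or 1.43 times lower, and without scaling it was -0.20 and not called. Lims1 lay at 8.79 to 8.95 on control and 8.58 to 8.62 on RA arrays, and the difference of -0.24 ± 0.11 was not called (SE, n = 3, limma adjusted p = 0.105) and turned to 0.03 without scaling.

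Of the plaque adaptors, Pxn (paxillin) fell narrowly. It lay at 9.58, 9.51 and 9.60 on control arrays and at 9.38, 8.99 and 9.21 on RA arrays, with RA array 1 nearest the controls. The difference was -0.37 ± 0.11 (SE, n = 3, limma adjusted p = 0.0262), and the call was lost when any of control arrays 1 and 3 and RA arrays 2 and 3 was left out (-0.38 to -0.27). A dimmer Pxn probe set gave -0.47 and another 0.42, neither called, and without scaling the difference was -0.05. Vcl (vinculin), which binds talin under tension, lay at 10.35 to 10.39 on control and 10.29 to 10.66 on RA arrays. Its groups overlapped, and the difference of 0.10 had a 95% interval from -0.11 to 0.31. Zyx (zyxin) was low on RA array 1, at 8.0, while RA arrays 2 and 3 at 8.92 and 8.80 lay in or next to the control range of 8.81 to 8.91. Its difference of -0.29 was not called (SE 0.20, n = 3, limma adjusted p = 0.309) and was -0.0067 without RA array 1, the array with the high Gapdh ratio.

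Across the 26 tested members the RA arrays lay wholly below the controls in 12 and wholly above in 4, where all genes gave 22.2% and 21.8% (44% in either direction). These shares were 46.2% and 15.4% of the members. Of the 12, 7 were called, and the others were Itga5, Itga4, Itga9, Fermt2 and Lims1. By this count the plaque genes gave 7 of 10 below and 0 above, and the integrin subunits 5 of 16 below and 4 above. Under the limma test 5 of 10 plaque genes fell and 0 rose, and 2 of 16 integrin subunits fell and 2 rose. That is 50% of plaque genes lower and 0% higher, and 12.5% of subunits each way, beside 15.6% and 14.3% of all genes. In either direction 25% of the subunits were called, against 30% of all genes. The medians of the plaque genes and the subunits were -0.34 and -0.19. Without RA array 1 and control array 3 they were -0.33 and -0.036, where that of all genes was 0.015. Without scaling 1 plaque gene fell and 0 integrin subunits did, and the medians became -0.04 and 0.05, where that of all genes was 0.26. Lower calls over all genes went from 2127 to 651 at the same time. Set against the all-gene median of the same scaling, the plaque median was -0.35 with quantile normalization, -0.32 with a common trimmed mean and -0.30 without scaling.

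**Figure D3:**
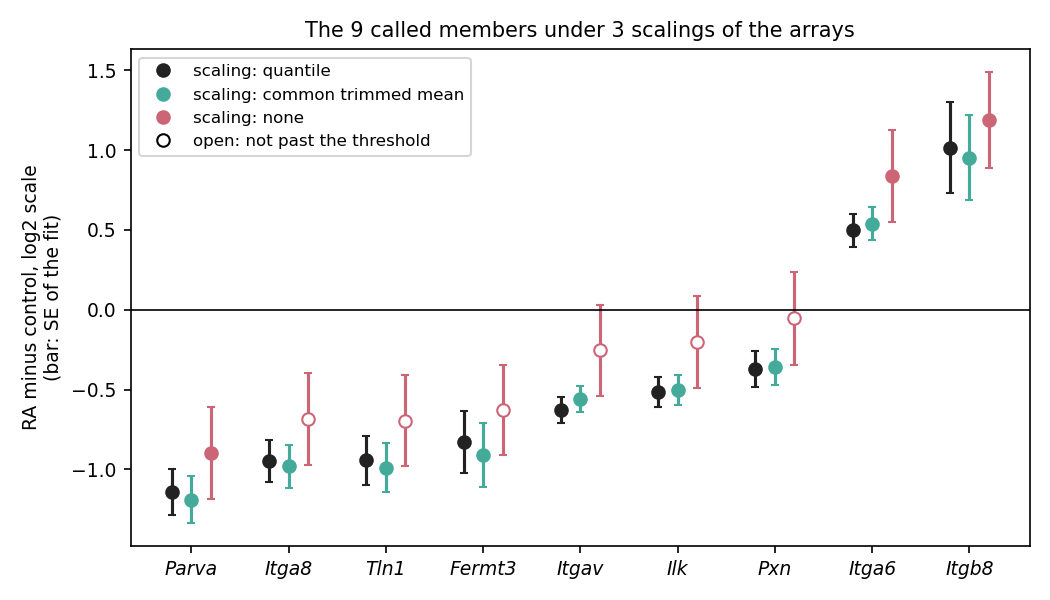
Differences (RA minus control, log2) of the 9 called members, with SE bars, under quantile normalization, scaling to a common trimmed mean and no scaling. Open points did not pass the threshold; without scaling the SE of each gene was larger and 6 of the 7 falls were open, from -0.70 to -0.05.

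In all, 10 members could not be tested. The 7 below the filter level were Itga1, Itgal, Itgam, Itgax, Itgb2, Itgb3 and Itgb4, and Itga11, Fermt1 and Ptk2 had no probe set named for them alone. In a fit with no filter, Itgb2, the common chain of leukocyte integrins, passed as lower (-1.01 ± 0.21, SE, n = 3, limma adjusted p = 0.00621). It lay at 5.18, 5.52 and 5.61 on control arrays and at 4.43, 4.41 and 4.46 on RA arrays, all below 5.74. Its partners Itgal, Itgam and Itgax gave 0.27, 0.37 and 0.03 and did not pass. For Itgb3, the chain of the platelet and vitronectin receptors, a probe set whose mean lay below the level read 6.64, 5.62 and 5.86 on control and 4.94, 4.39 and 4.41 on RA arrays. The slightly brighter one, which represented the gene, gave 0.39 and did not pass. The values of Itga1, a collagen receptor of mesenchyme, were 5.10 to 6.54 on control and 4.60 to 5.95 on RA arrays, and overlapped. Itgb4, the hemidesmosome chain, gave -0.16 with every array at or under 5.09.

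Several probe sets of a member often read different values. Of the 53 kept probe sets 5 were called higher and 8 lower in the fit over all 27022 kept probe sets, of which 22.4% were called. In 15 members more than 1 probe set was kept, in 11 of these they differed in sign, and in 0 were calls of opposite direction found. Of the 6 called members with several kept probe sets, 2 had a second probe set called the same way, Itga6 and Fermt3. The parts of a transcript that each probe set reads were not examined.

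**Figure D4:**
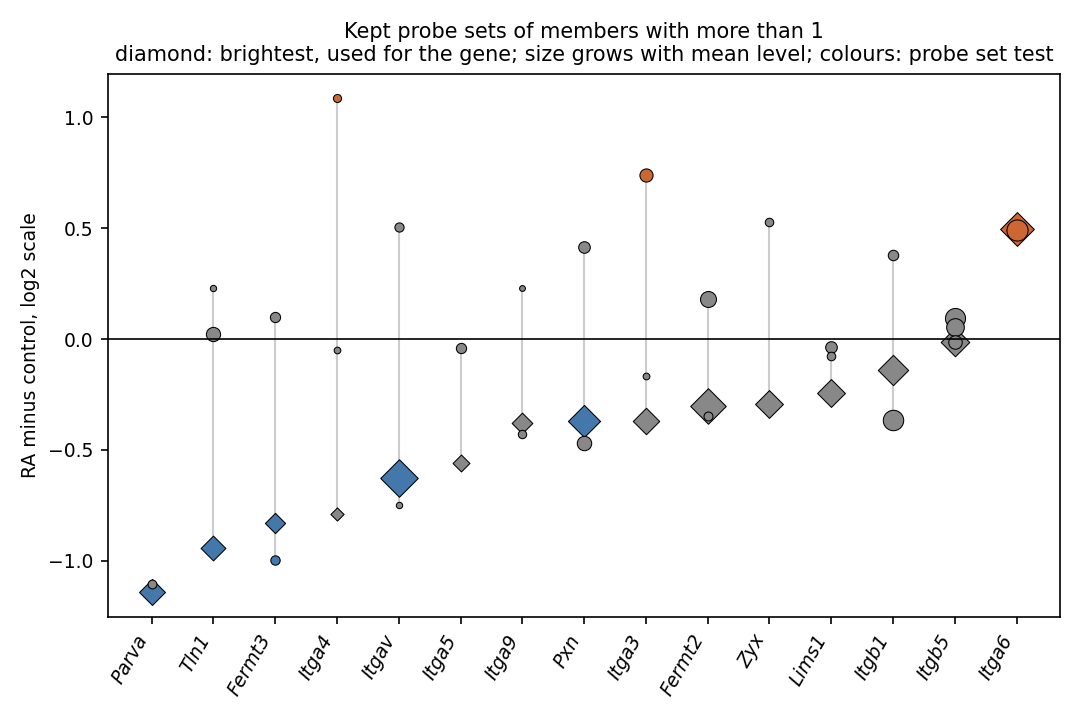
Differences (RA minus control, log2) of each kept probe set of the 15 members with more than 1; diamonds were used for the gene, larger symbols are brighter, and blue and orange are called lower and higher. For Itga4 and Itga3 a dimmer probe set was called higher (1.09 and 0.74) while the brightest lay below 0 and was not called.

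The ligands and linkers of these receptors, taken from lists of the wider pathway, moved in both directions. Of 29 tested ligands 6 rose and 14 fell, or 20.7% and 48.3%, beside 14.3% and 15.6% of all genes. Postn, a ligand of Itgav receptors, fell by 3.91 on the log2 scale, Col3a1, a fibrillar collagen, fell by 2.38, and Fn1 (fibronectin) fell by 1.86, while Cdh1 (E-cadherin), the ligand of the Itgae chain, rose by 1.56. The rises also held the laminin chains Lama1 (1.74), Lamc1 (0.71) and Lamb1 (0.52), whose receptors include Itga6. Col4a1 (0.62) and Col4a2 (0.49) rose as well. The laminin chains Lama3 (0.92), Lama5 (0.33), Lama2 (-0.23), Lamb3 (-0.22) and Lamb2 (-0.45) were not called, and Nid1 (-1.07) fell. These laminin, Col4a and Nid1 genes were singled out after their values were seen. Their probe sets do not say which cells made them. Without scaling 6 ligands rose and 12 fell, where 1750 of all genes rose and 651 fell.

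Among 29 tested actin linkers and filament regulators 2 rose and 18 fell, or 6.9% and 62.1%, beside 14.3% and 15.6% of all genes tested. The falls held Cald1 (caldesmon, -1.62), Myh10, a nonmuscle myosin (-0.87), and Myl9, a myosin light chain of smooth muscle (-2.90), and the formin Diaph1 rose (0.41). Without scaling 5 of these genes fell and 1 rose, and with a common trimmed mean 14 fell and 2 rose. The shares of all genes given here are those of quantile normalization, where 2127 fell and 1949 rose. Without scaling 651 of all genes fell and 1750 rose, and with a trimmed mean 2234 fell and 1856 rose. The list median less that of all genes was -0.47 with quantile normalization, -0.41 with a trimmed mean and -0.41 without scaling. Of 54 other adaptors and signalling genes 5 rose and 13 fell, or 9.26% and 24.1%, beside the same 14.3% and 15.6%. Without scaling 3 of them rose and 3 fell. Dab2, an endocytic adaptor (1.75), and Ajuba, a LIM adaptor (1.07), rose, and Sorbs2 (-1.92) and Tgfb1i1, a paxillin relative (-1.50), fell. Of 14 integrin partner proteins of the membrane 3 rose and 4 fell, or 21.4% and 28.6%. Without scaling 3 of them rose and 1 fell. The tetraspanins Cd151 (-0.90) and Cd81 (-0.67) and the thrombospondin receptor Cd47 (-0.97) fell. Thy1, a cell surface ligand of integrins, rose by 2.68 from a control mean of 5.47, below the filter level. Ptk2b, called higher in the linked lists, also had a control mean below that level (5.55). Actn2 and Nebl, called lower, had RA means below it (5.28 and 5.62). Thy1, Ptk2b, Actn2 and Nebl therefore passed the filter through the group where they were higher. Tetraspanins went both ways, as Cd9 rose (0.62) and Cd82 (-0.01) and Tspan4 (-0.38) were not called. Cd9, Cd82, Tspan4, Ptk2b, Actn2 and Nebl were singled out after their values were seen. The limma adjusted p of the 16 genes taken by smallest p from these 4 lists was at most 0.0246.

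**Figure D5:**
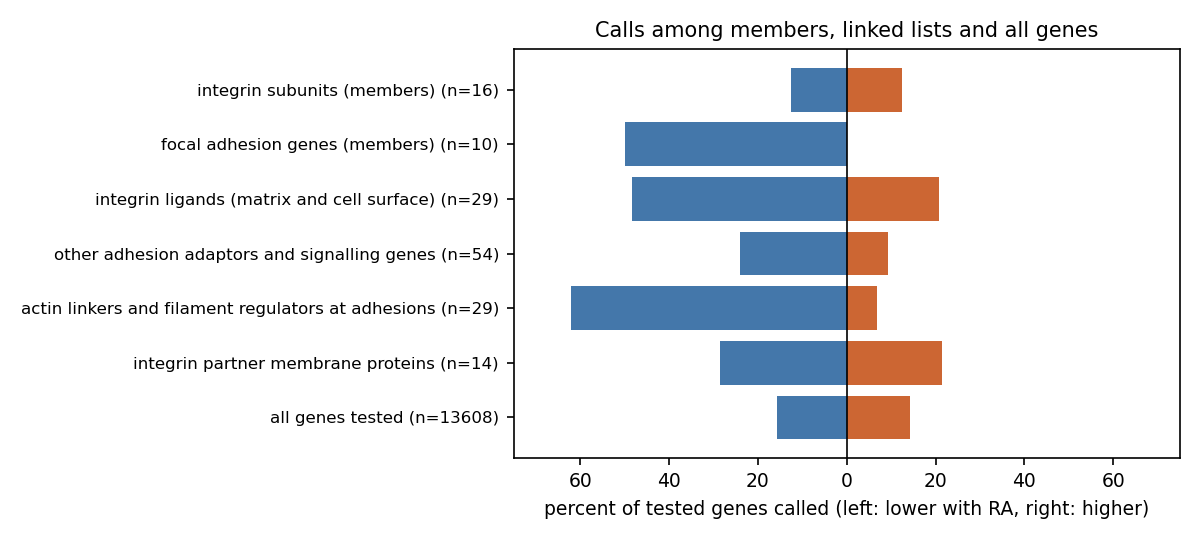
Percent of tested genes called lower (left) and higher (right) with RA among the members and linked lists, beside all genes tested. Plaque genes gave 50% lower and 0% higher and actin linkers 62.1% and 6.9%, where all genes gave 15.6% and 14.3%. The ligand list shares Col1a1, Col3a1 and Postn with the smooth muscle and mesenchyme markers and Cdh1 with the epithelial markers.

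Markers of several cell types moved with these members. Of all genes tested, 14.3% rose and 15.6% fell. Over 15 genes of smooth muscle and mesenchyme the mean level was 9.18 to 9.42 on control and 7.09 to 7.44 on RA arrays, with 1 and 3 genes below the filter level, and 11 of 13 tested genes fell. Over 16 heart and skeletal muscle genes it was 8.50 to 9.08 and 6.11 to 6.20, with 0 and 6 below the level. These shifts lie beside the falls of Itga8, Itgav, Tln1, Parva, Ilk and Pxn, and their part in them was not tested. Beside the fall of Fermt3, macrophage markers lay at 6.74 to 7.14 and 6.16 to 6.32 over 15 genes, with 1 and 5 below the level, and 5 of 13 tested fell. Of these falls, C1qb, Cd68 and Ptprc had RA means below the level (5.01, 5.54 and 5.23). C1qb, Cd68 and Ptprc therefore passed the filter through the control arrays, and were picked out after their values were seen. Platelet markers lay at 6.88 to 7.08 and 5.59 to 5.70 over 8 genes, with 2 and 4 below the level. Of 5 tested platelet markers 3 fell. Pf4, a platelet chemokine, fell by 4.89, Ppbp by 1.76 and F2rl2 by 0.75, while Gp5 (-0.27) and Gp1bb (-0.31) were not called. The part of macrophage and platelet markers in the fall of Fermt3 was not tested. Beside the rises of Itga6 and Itgb8, epithelial markers lay at 9.01 to 9.23 on control and 9.50 to 9.53 on RA arrays over 13 genes, with 0 below the level in either group. Pluripotent and epiblast markers lay at 7.67 to 7.88 and 9.87 to 10.01, and neural progenitor markers at 6.29 to 6.65 and 8.17 to 8.26, where 3 of 9 genes were below the level in controls and 0 with RA. Sox1 and Zic2, with control means of 4.87 and 5.57, passed the filter through the RA arrays, and these were picked out after their values were seen. In the epithelial list 6 of 13 tested genes rose and 3 fell. In the pluripotent and epiblast list 10 of 11 rose and 1, Zfp42, fell (-0.46). In the neural list 6 of 8 rose and 0 fell. The part of these lists in the rises of Itga6 and Itgb8 was not tested. Markers of endothelium, red cells and yolk sac endoderm moved too. Endothelial markers lay at 7.05 to 7.31 and 5.89 to 6.14, red cell markers at 8.71 to 8.92 and 6.34 to 6.43, and yolk sac markers at 8.45 to 8.66 and 9.33 to 9.39. Below the level were 2 and 6 of 13 endothelial, 0 and 1 of 8 red cell and 1 and 0 of 15 yolk sac genes. Of 15 yolk sac markers 8 rose and 5 fell, so their mean covers changes both ways. Of these 8, Amn, with a control mean of 5.64, passed the filter through the RA arrays. Falling genes of other lists passed through the control arrays, with RA means below the level. Among them were Ppbp (5.68), Cldn5 (4.89), Sox18 (5.275), Alas2 (4.74), Myh6 (5.48), Tnnt2 (5.34) and Tagln (5.01). Amn and these falling genes were picked out after their values were seen.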

How the data were processed

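Per the labels, the authors made CEL and CHP files with the Affymetrix GCOS software at default settings, and each of the 45101 probe sets has a deposited linear intensity on each of 6 arrays. The version of GCOS is not given in the sources used here. Trimmed means of the intensity ran from 108 to 191, so the arrays were not on a common level, and log2(intensity + 16) was quantile normalized after leaving out 64 control probe sets. The pseudocount understates the change of dim genes. Probe sets with a mean above the 40th percentile (log2 level 5.74) were kept, 27022 in all, and each gene was read from its brightest kept probe set with 1 symbol in GEO's array annotation. Of 45037 probe sets 34945 had 1 symbol, 932 several and 9160 none. Symbols and promoters came from RefSeq tables (GRCm38.p6), and no symbol needed an update. No detection calls were used. The number of arrays limits the precision.

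The comparison used limma 3.58.1 (R 4.3.3; lmFit, eBayes with a trend, no covariates, Benjamini-Hochberg). Tested on simulated data of 13608 genes, the fit recovered 49% of genes changed by 1 and 90% of those changed by 2 log2 units. Unchanged genes made up 2.80% of the calls. The simulation changed far fewer genes than were called here and drew noise independently for each gene. These shares therefore need not hold for the real arrays. Alternatives covered scaling, pseudocount, filter, choice of probe set, the trend, a replicate block and leaving out arrays. Every member could be named, and from each other list up to 4 genes with the smallest p, at most 3 of one direction; genes outside this rule are marked in the text as chosen after their values were seen. The members and lists were chosen with earlier results of these data known.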

Additional observations from a re-analysis of the deposited data

How the results depend on the processing

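Without scaling, 1 member was lower, the member median was -0.037, 651 genes were lower over the whole array, the median of all genes was 0.26 and 34 genes of the 4 linked lists were called, against 65 with quantile normalization. These calls therefore depend on placing the arrays on a common level. Differences that turned sign without scaling, none of them called, were Fermt2 (0.063), Itga7 (0.16), Itgb1 (0.15), Itgb5 (0.28) and Lims1 (0.030). With a common trimmed mean the median of all genes was -0.015, and 9 members were lower, with 1856 genes higher and 2234 lower in all. With the mean of a gene's kept probe sets, 4 members were lower, with medians of -0.092 over members and 0.020 over all genes, and Itga3 (0.068), Itga4 (0.083), Itgb5 (0.031) and Zyx (0.12) turned. With the most variable probe set, 4 members were higher and 3 lower, with medians of 0.10 and 0.021, and Fermt3 (0.10), Itga3 (0.74), Itga4 (1.09), Itga9 (0.23), Itgb1 (0.38), Pxn (0.42) and Zyx (0.53) turned. These turns follow from reading another probe set. The member counts under either choice of probe set are given without the share of all genes called. Leaving out each array in turn gave 1 to 2 members higher and 6 to 9 lower, where 1488 to 1815 of all genes were higher and 1732 to 1925 lower. Medians were -0.39 to -0.23 over members and -0.0007 to 0.019 over all genes. Ranges crossed 0 for Itga7 (-0.39 to 0.13), Itgb5 (-0.16 to 0.14), Itgb7 (-0.52 to 0.026) and Itga10 (-0.54 to 0.016). When RA array 1 and control array 3 were both left out, 1 member was higher, and Itga7 (0.27), Itgb5 (0.27), Itgb7 (0.11) and Zyx (0.0004) turned. The cause of these moves was not tested. Same-numbered arrays did not deviate together (correlations of -0.09, -0.01 and -0.03 over genes), and with a replicate block 2 members were higher and 7 lower, with 1775 genes higher and 1949 lower in all. The block changed no member's call. Both pseudocounts, both filters and the fit without a trend gave 2 members higher and 6 to 8 lower, and Pxn lost its call without the trend. Dim genes near the filter level limit what can be read.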
